A study of Homo sapiens with 4 samples.

Results

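LMO2 is one of a small family of LIM-only proteins, and the genes described here are the family, LMO1 to LMO4, with the cofactors they work through, LDB1, LDB2, SSBP2 and SSBP3. The members were chosen by name, as every probe whose gene name in the deposited bead signals is one of these 8 genes. They gave 12 of the 47321 probes on the array, and 5 of the 12, from 4 genes, were bright enough to be tested. Messenger RNA was measured in OE33, an established human cell line from an esophageal adenocarcinoma. One group of cells received a precursor for miR-223, a microRNA, and the other a negative control precursor, a treatment that some labels call a mock transfection. Transfections were at 10 nM in both groups, and RNA was taken 24 h later. There were 2 bead arrays (Illumina HumanHT-12 v4) in each group, described in the labels as biological replicates of this one cell line.

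LIM-only proteins consist of a pair of LIM zinc-finger domains and little else, so they bind other proteins and not DNA. LDB1 and its paralog LDB2 bind the LIM domains and pair with themselves, and SSBP2 and SSBP3 bind LDB proteins and protect them from breakdown. In blood progenitors LMO2 and LDB1 link the transcription factors TAL1, an E protein such as TCF3 and a GATA factor into one DNA-binding complex. LMO2 is needed for blood formation and is an oncogene in T-cell leukemia, while LMO4 is widely expressed in epithelia. miR-223 is abundant in myeloid cells, and LMO2 is a reported target of it. A microRNA lowers its targets by pairing of its seed, bases 2 to 8, with the messenger RNA.

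The transfected microRNA is shown because its seed decides which messenger RNAs it can pair with. The sequences below are from RefSeq (GRCh38.p14), written 5′ to 3′ with the seed in capitals for the mature arms and the miR-223-3p arm in capitals for the hairpin. The hairpin lies at chrX:66018870-66018979 on the plus strand, and its 110 bases hold miR-223-3p from base 68 and miR-223-5p from base 26.
hsa-miR-223-3p: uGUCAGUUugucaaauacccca
hsa-miR-223-5p: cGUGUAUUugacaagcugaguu
MIR223 hairpin: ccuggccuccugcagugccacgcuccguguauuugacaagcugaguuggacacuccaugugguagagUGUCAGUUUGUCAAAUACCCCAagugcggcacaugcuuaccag
The complement of the miR-223-3p seed, read 5′ to 3′, is AACUGAC. Of 2370 mature microRNA names in the same table, 1 has the seed GUCAGUU, namely miR-223-3p itself. Untranslated regions of the members were not used here, so no target site in them is shown.

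The arrays were alike in median raw signal and in the number of probes detected. Median raw signals were 114.5 to 118.4 units, and between 18036 and 18916 of 47321 probes were detected. Most probes were not detected, so the median describes background more than signal. The number of arrays limits the precision of every value. A probe counted as detected on an array when its deposited detection p was under 0.05. The epithelial label of the line was borne out by its markers, since 10 of 10 epithelial genes, among them KRT8, KRT19 and EPCAM, had a probe detected on all 4 arrays. Of 12 leukocyte markers, 7 were detected on no array, among them PTPRC, which encodes the pan-leukocyte protein CD45, and 2, LCP1 and CD14, on all 4. Of 8 endothelial markers, 6 were detected on no array, among them PECAM1 and CDH5, and 1, ENG, on all 4.

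LMO2 was detected in this epithelial line on every array. Its one probe, ILMN_1800078, read 218.7 and 334.7 raw intensity units in the miR-223 cells, against 323.2 and 583.6 in the control cells. The 2 highest values were a control array and then a miR-223 array, so the raw groups overlapped. By the deposited detection values, no negative control probe was brighter than LMO2 on any array. The error between beads of one array was small, between 4.28% and 6.49% of the signal. The spread between replicate arrays was larger, with an SD of 29.6% of the mean raw signal in the miR-223 group and 40.6% in the control group.

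LMO4, the paralog best known from epithelial cells, was also detected on every array, by both of its probes. Probe ILMN_1703487 read 308.5 and 509.6 raw intensity units in miR-223 cells, against 523 and 772.2 in control cells. Probe ILMN_2117171 read 491.2 and 744.4 in miR-223 cells, against 654.4 and 973.1 in control cells. By the first probe both miR-223 arrays were below both control arrays, by the second they overlapped, and both probes had their lowest value on miR-223 replicate 1 and their highest on control replicate 2, as LMO2 did. The bead error of the LMO4 probes was between 4.52% and 9.82% of the signal.

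The other LIM-only genes were not detected. LMO1, like LMO2 an oncogene of T-cell leukemia, read between 94.9 and 116.8 raw units, with detection p-values between 0.161 and 0.904. LMO3, a mostly neural paralog, had 3 probes, which read between 94.3 and 115.7 with detection p-values between 0.256 and 0.953. Neither gene had a value above the detection threshold on any array, so no level can be given for them. A weak probe and a low transcript cannot be told apart, above all for LMO1, which has 1 probe.

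The LDB cofactors gave signals at or close to background. The LDB1 probe, ILMN_1811347, read 118.9 and 112 raw units in miR-223 cells, against 111.3 and 111.3 in control cells, and was detected on 0 of 4 arrays (detection p between 0.0831 and 0.399). The LDB2 probe, ILMN_1800697, read 125.5 and 124 in miR-223 cells, against 119.2 and 106.7 in control cells, and was detected on 1 array, miR-223 replicate 1. Each of these genes has a single probe here, so a weak probe and a low transcript cannot be told apart.

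The SSBP cofactors were dim. SSBP2 read 155.4 and 182.9 raw units in miR-223 cells, against 156.7 and 178.7 in control cells, and was detected on all 4 arrays. One SSBP3 probe, ILMN_1814165, was detected on 0 of 4 arrays and read between 114.2 and 125. The other, ILMN_2361163, read 115.7 and 119.5 in miR-223 cells, against 129.9 and 149.1 in control cells, and was detected on both control arrays and on 0 of the miR-223 arrays. SSBP2 values overlapped between groups, while the miR-223 values of the second SSBP3 probe were both below its control values. Levels of different probes are not set in order, since probes differ in how brightly they read.

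**Figure D1:**
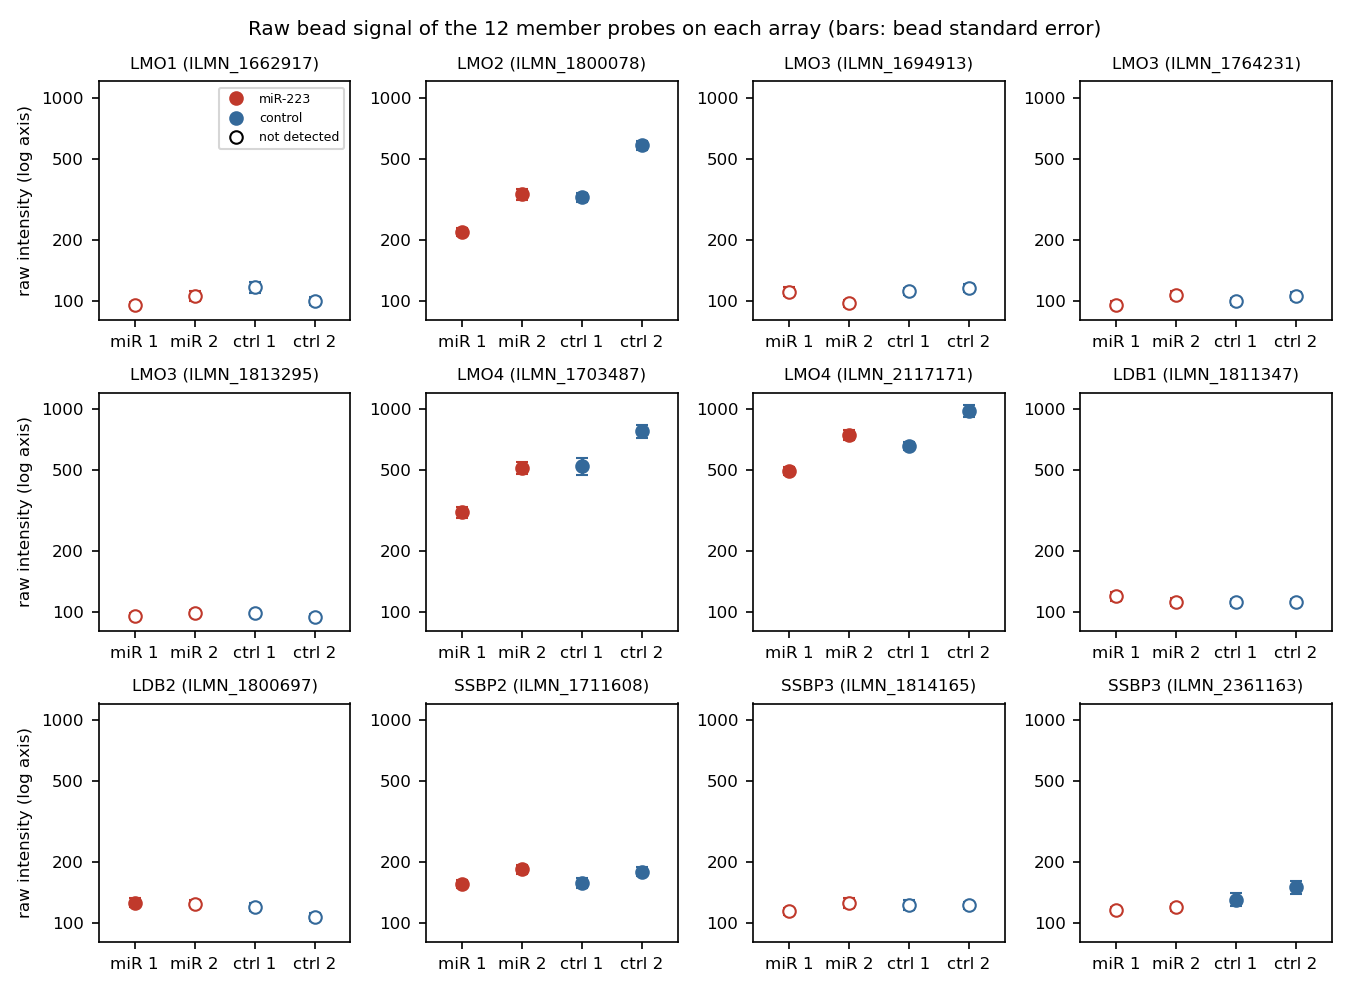
Raw intensity (log axis) of the 12 member probes on each of the 4 arrays, miR-223 (miR) in red and control (ctrl) in blue. Bars show the bead standard error and open circles mark arrays where the probe was not detected. LMO2 and both LMO4 probes stood between 218.7 and 973.1 units, and the LMO1, LMO3, LDB1 and LDB2 probes between 94.3 and 125.5.

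The comparison of miR-223 with control cells asks whether the members differ in level when the microRNA is raised. LMO2 had a 1.92-fold lower value in miR-223 cells, and LMO4 a 1.78-fold lower value on one probe and a 1.39-fold lower value on the other. SSBP2 had a difference near 0. None passed limma after Benjamini-Hochberg adjustment over all 18629 tested probes, of which 0% passed (lowest adjusted p = 0.909). At an unadjusted limma p under 0.05 there were 1017 probes on the whole array, or 5.46% of those tested. In bulk RNA, fewer cells holding a transcript and less of it per cell cannot be told apart.

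After background correction and quantile normalization, LMO2 stood at log2 intensities of 7.11 and 7.83 in miR-223 cells, against 7.99 and 8.82 in control cells. Both miR-223 arrays were then below both control arrays, though by a narrow margin. A lower, non-overlapping order of this kind was found for 16.8% of all tested probes. The group means were 7.47 ± 0.51 in miR-223 cells and 8.40 ± 0.59 in control cells (SD, n = 2 each). The log2 difference was -0.94 ± 0.35 (SE, limma; 95% interval -1.73 to -0.15; adjusted p = 0.909). By the size of this difference LMO2 was the 41st lowest of 18629 tested probes. By its unadjusted p of 0.0258 in limma it was 507th, and 2.78% of tested probes were lower at an unadjusted p under 0.05. Without control replicate 2 the LMO2 difference was -0.52 and without miR-223 replicate 1 it was -0.58. After median scaling the groups overlapped, at 7.03 and 7.92 in miR-223 cells against 7.86 and 8.90 in control cells.

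The LMO4 probes had the same sign as LMO2 and different sizes. Probe ILMN_1703487 stood at log2 intensities of 7.88 and 8.62 in miR-223 cells, against 8.88 and 9.29 in control cells, without overlap. Its difference was -0.83 ± 0.30 (SE, limma; 95% interval -1.52 to -0.15; adjusted p = 0.909), the 87th lowest of the tested probes. By its unadjusted p of 0.0231 in limma, ILMN_1703487 was 442nd of the tested probes. Of all tested probes, 2.78% were lower at an unadjusted p under 0.05. Probe ILMN_2117171 stood at 8.73 and 9.27 in miR-223 cells, against 9.26 and 9.68 in control cells, where 1 miR-223 array matched the lower control array. Its difference was -0.47 ± 0.27 (SE, limma; 95% interval -1.09 to 0.15; adjusted p = 0.954), within what the replicate spread allows at 0. The probes of one gene share their RNA and are not replicates of each other. Without miR-223 replicate 1 the difference was -0.46 for ILMN_1703487 and -0.21 for ILMN_2117171. For ILMN_2117171 the difference was -0.27 without control replicate 2 and -0.74 without miR-223 replicate 2.

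Whether LMO2 differed more than LMO4 was tested on the log2 ratio of the probes within each array. The LMO2 difference minus that of ILMN_1703487 was -0.10 on the log2 scale (two-sided exact permutation p = 1). Minus that of ILMN_2117171 it was -0.46 (two-sided exact permutation p = 0.333). The smallest p that 2 arrays against 2 allow is 0.333, so this design cannot pass 0.05.

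SSBP2 stood at log2 intensities of 6.12 and 6.42 in miR-223 cells, against 6.14 and 6.28 in control cells. The values overlapped, and the difference was 0.055 ± 0.23 (SE, limma; 95% interval -0.47 to 0.58; adjusted p = 0.999). Differences within that interval could not be told from 0 with these arrays. SSBP3 probe ILMN_2361163 stood at 4.83 and 4.87 in miR-223 cells, against 5.32 and 5.70 in control cells. Because it was not detected on either miR-223 array, its miR-223 level is a bound. Against the lowest detected signals the control level was 1.36-fold higher (limma adjusted p = 0.909 on the measured values). That figure holds for the reported background correction and offset only. This probe entered the test only through the control arrays, where it was higher, so its direction is no support. The difference on the measured values was -0.66, and it was -0.22 without background correction and -0.34 with an offset of 50.

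**Figure D2:**
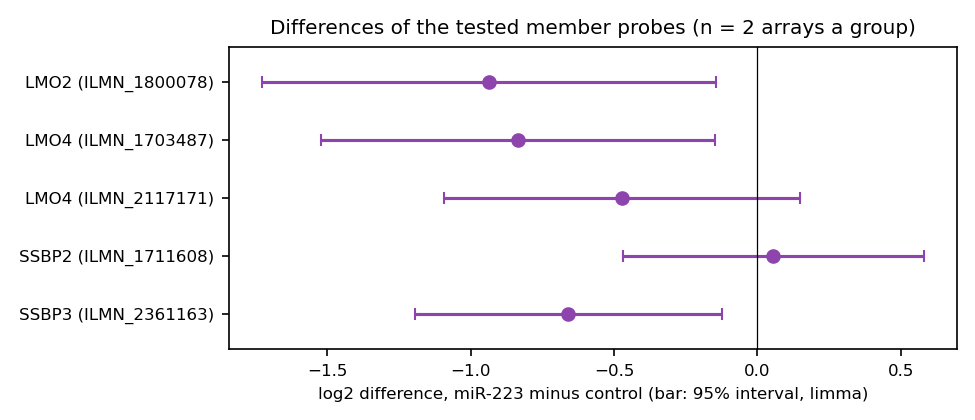
Log2 difference (miR-223 minus control) of the 5 tested member probes with 95% intervals from limma, 2 arrays a group. LMO2 lies at -0.94, the LMO4 probes at -0.83 and -0.47, SSBP2 at 0.055 and SSBP3 at -0.66.

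**Figure D3:**
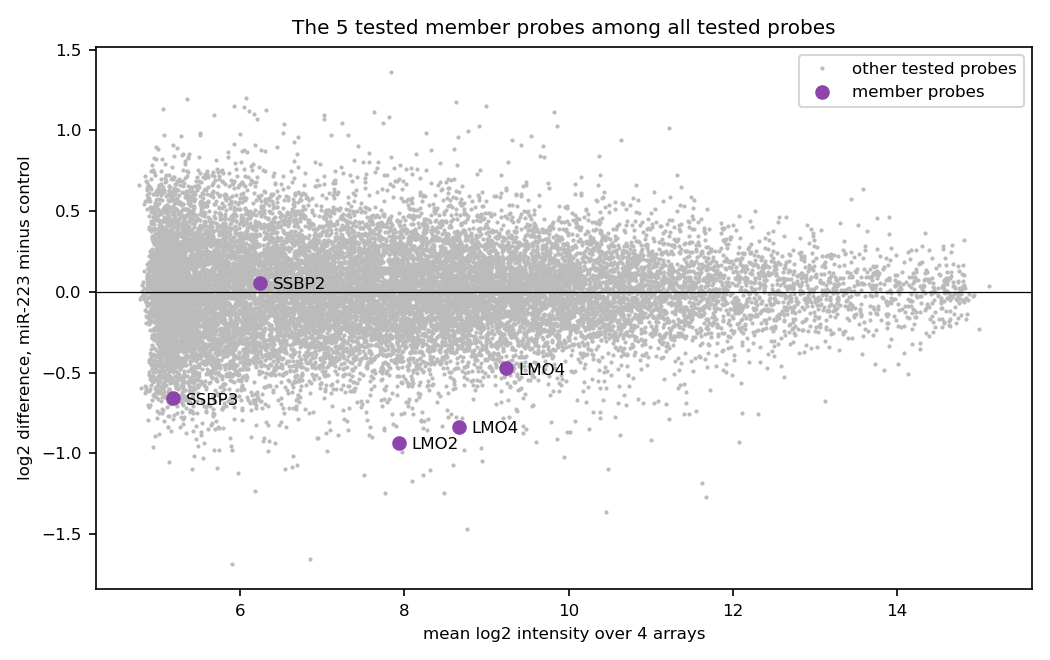
Log2 difference (miR-223 minus control) against mean log2 intensity for all 18629 tested probes in grey, with the 5 member probes in purple. LMO2 and one LMO4 probe lie at the lower edge of the cloud, as the 41st and 87th lowest differences.

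On the log2 fold changes of the authors' deposited table per gene, LMO2 stood at -0.68 and LMO4 at -0.52, the 34th and 84th lowest of 34693 genes. These ranks are over all genes of that table, detected here or not, unlike the ranks among tested probes. For LMO4, which has 2 probes here, that table holds 1 value. The authors' deposited table gave SSBP2 at 0.026 and SSBP3 at -0.13. These values rest on signals without background correction, where the fit on the raw bead signals also gave LMO2 at -0.68.

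The genes whose values across the 4 arrays were most like LMO2 were found by the Euclidean distance between log2 values centred on each gene's mean, over 10558 genes with a current symbol. GPX8, which encodes a glutathione peroxidase family protein of the endoplasmic reticulum, was nearest at a distance of 0.0301. It stood at 5.46 and 6.15 in miR-223 cells, against 6.33 and 7.14 in control cells. NIPAL3, a predicted magnesium transporter, followed at 0.156, and SPPL2B, an intramembrane protease, at 0.184. On miR-223 replicate 1 SPPL2B stood at 4.98, below the lowest detected value of that array, 5.08. LMO4 probe ILMN_1703487 was 7th nearest among 18628 tested probes at 0.314, the other LMO4 probe was 123rd at 0.566, and SSBP2 was 5978th at 1.14. With 4 arrays, such a likeness describes 4 values only.

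Transcripts of some other proteins of the LMO2 complex were detected. Of 17 genes on a list of complex partners and their regulators, 9 were tested and 7 were detected on no array. TAL1, TAL2 and LYL1, the blood helix-loop-helix factors that recruit LMO2, were all among the undetected, as were GATA1 and the corepressor gene CBFA2T3. The E protein genes TCF3 and TCF12, the factor genes GATA2 and GATA3, and CBFA2T2 each had a probe detected on all 4 arrays. TCF4, another E protein gene of the list, was detected on no array. Among the 9 tested genes, 0 passed at an unadjusted or adjusted limma p under 0.05, and 3 had negative differences, where 49.5% of all tested probes were below 0. The list median was 0.29, beside 0.0001 over all 14373 tested genes. Without miR-223 replicate 1 this median was -0.080.

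GATA2, a GATA factor of blood progenitors, stood at log2 intensities of 7.24 and 6.92 in miR-223 cells, against 6.80 and 6.58 in control cells. Its difference was 0.39 ± 0.23 (SE, limma; adjusted p = 0.963), with both miR-223 arrays above both control arrays, an order that 16.4% of tested probes showed. ID2, which encodes an inhibitor that sequesters E proteins, stood at 10.46 and 9.79 in miR-223 cells, against 9.93 and 9.46 in control cells. Its difference was 0.43 ± 0.30 (SE, limma; adjusted p = 0.987), and it was 0.13 on its other probe. Without miR-223 replicate 1 the ID2 difference was 0.093 and that of GATA2 was 0.23, and without control replicate 2 that of ID2 was 0.20. SSBP4, the third gene of the SSBP family that binds LDB proteins, had probes at 0.29 ± 0.22 and 0.028 ± 0.49 (SE).

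LDB1 also serves LIM-homeodomain factors, and of 12 such genes 3 were tested and 9 were detected on no array. ISL1 and ISL2, which act in neural and endocrine development, were detected on all 4 arrays, at differences of 0.26 ± 0.30 and 0.31 ± 0.35 (SE). The list median was 0.26, and -0.17 without miR-223 replicate 1. None of the 3 passed at an unadjusted limma p under 0.05. Of the 4 reported LMO4 partners, 3 were tested. All 3 had a positive difference on the brightest probe, where 49.5% of all tested probes were below 0. BRCA1, a DNA repair gene whose product LMO4 binds, stood at 7.75 and 7.87 in miR-223 cells, against 7.31 and 7.40 in control cells, a difference of 0.46 ± 0.22 (SE, limma; adjusted p = 0.929). Its other tested probes gave 0.34 and 0.12. RBBP8, the gene of the end-resection factor CtIP, stood at 0.14 on its brightest probe and -0.16 on the other. The transcription factor gene DEAF1 had probes at 0.13 and -0.022, and IL6ST was detected on no array.

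Of 9 genes that the LMO2 complex is known to control in blood, 3 were detected on all 4 arrays and tested, beside 14373 of 34328 gene names on the whole array that were tested. Another 5 were detected on no array, among them EPB42 of the red cell membrane, the erythroid factor gene KLF1 and the receptor gene KIT. The 3 tested genes were HHEX at 0.12 ± 0.23, RUNX1 at 0.023 ± 0.29 and MYB at -0.25 ± 0.27 (SE), with 0 at an unadjusted limma p under 0.05. Of GATA4, GATA5, GATA6, ZFPM1 and ZFPM2, only ZFPM1, a GATA cofactor gene, was tested, at 0.13 ± 0.22 (SE).

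Markers of other cell types are given beside these values, and their part in the LMO2 difference was not tested. Of the leukocyte markers detected on all 4 arrays, LCP1 stood at 0.45 and CD14 at 0.38, and LCP1 was at 0.084 with miR-223 replicate 1 left out and 0.19 with control replicate 2 left out. CD79A entered the test through the miR-223 arrays alone, where it was higher, so its direction is no support. SPI1, detected on only 1 array in each group and close to background, stood at 0.0020. Of the 4 tested leukocyte genes, 0 passed at an unadjusted limma p under 0.05. The summed raw signal of the leukocyte probes, most of them not detected, was 2445 and 2565 in miR-223 cells, against 2329 and 2534 in control cells. The 2 tested endothelial markers, CD34 and ENG, stood at -0.11 and 0.074, and CD34 was detected on only 1 array in each group, close to background. The endothelial list summed to 1589 and 1708 in miR-223 cells, against 1609 and 1638 in control cells. The 10 epithelial markers had a median of -0.11, and 7 of them had negative differences, where 49.5% of all tested probes were below 0. The claudin genes CLDN3, at 0.66, and CLDN4, at 1.05, were the 2 higher at an unadjusted limma p under 0.05. On the whole array 2.68% of tested probes were higher at that p, and 0 of the 10 genes passed after adjustment. CLDN7, the other claudin gene of the list, stood at -0.24, with both miR-223 arrays below both control arrays. That order was found for 16.8% of tested probes. CLDN4 stood at 0.52 without miR-223 replicate 1 and, in the fit lacking control replicate 2, at 0.50. CLDN3 was at 0.36 when miR-223 replicate 2 was left out and 0.54 when control replicate 1 was, and CLDN4 was at 1.58 and 1.60 in those fits. Without miR-223 replicate 1 CLDN3 was at 0.97, and without control replicate 2 at 0.79.

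**Figure D4:**
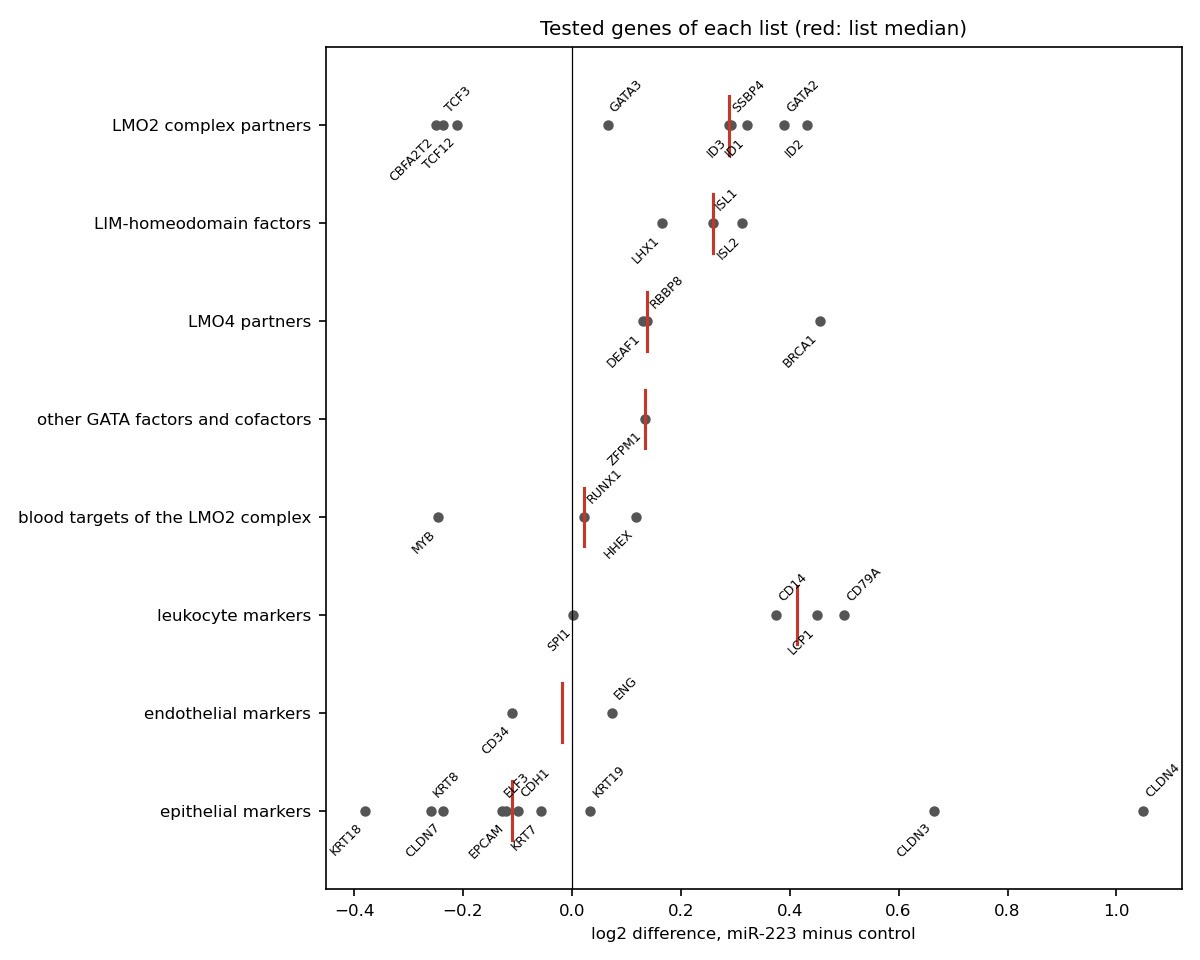
Log2 difference (miR-223 minus control) of every tested gene on each list, 1 point a gene by its brightest probe, with the list median in red. The LMO2 complex partners have a median of 0.29 and the epithelial markers a median of -0.11, and none of the points passed limma after adjustment.

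**Figure D5:**
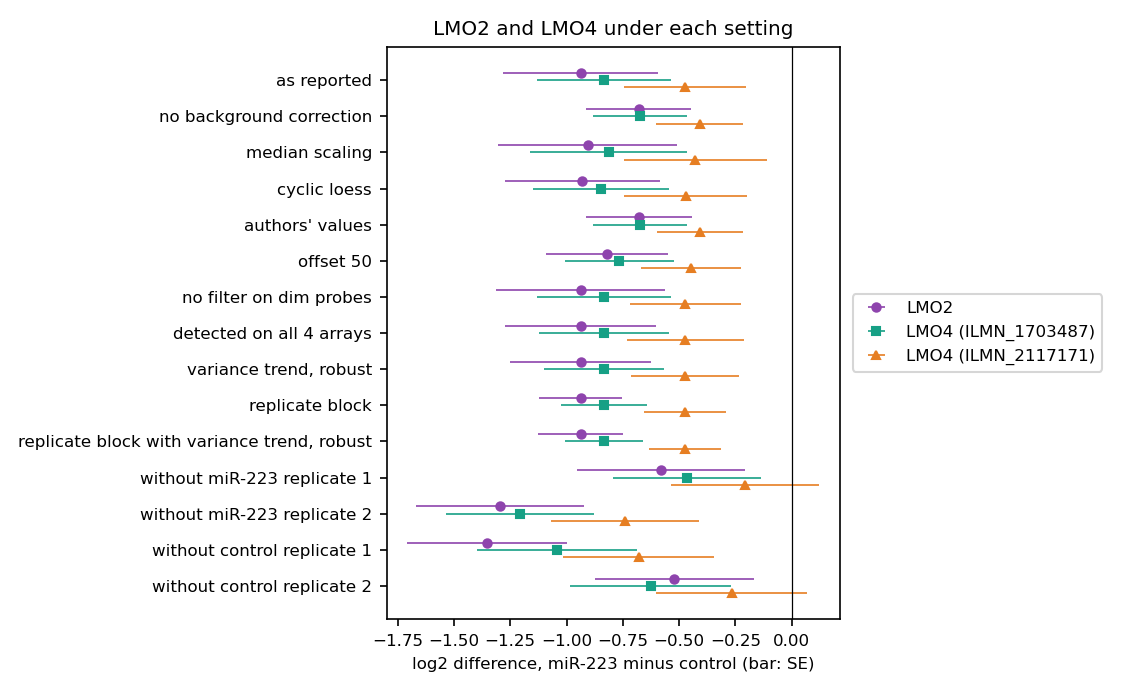
Log2 difference (miR-223 minus control, bars SE) of LMO2 and both LMO4 probes under each processing setting. All values lie below 0, and those of LMO2 run between -1.35 and -0.52 when 1 array is left out.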

How the data were processed

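Each deposited probe row gives, per the file headers, a linear intensity averaged over beads, with its standard error, bead number and detection p-value for every array. A second deposited table holds intensity values that the authors quantile normalized, judging by its near-equal sorted columns. A deposited table per gene gives log2 values, a log2 fold change and a signed linear fold as a score, which was not used. The submitters' processing notes name GenomeStudio, BeadStudio and Partek, with no roles. Background was corrected by normexp on the detection p-values (offset 16), followed by quantile normalization and log2 (neqc, limma 3.58.1, R 4.3.3). Probes detected on at least 2 of 4 arrays were tested with lmFit and eBayes, group as the only term, two-sided, Benjamini-Hochberg over 18629 probes. Background correction enlarged differences of dim probes such as SSBP3. P-values rest on the spread between 2 arrays a group, which eBayes moves towards the spread common to all tested probes. Old gene names were updated through RefSeq genes, and a gene's brightest tested probe stood for it in lists. Of list genes, the rule was to name with values the ones at an unadjusted limma p under 0.05, or else the 2 with the smallest p. SSBP4, DEAF1, RUNX1 and the other probes of named genes were added after their values were seen. The values given for CD14, SPI1 and CLDN7 also fall outside this rule. Members and lists were chosen with earlier results of these data known. List genes that the text does not name are counted only, and 1 gene left out of the lists is not reported here. The fit was tested on simulated data. Alternatives were other background, scaling, filter and variance settings, the replicate number as a block and each array left out.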

Additional observations from a re-analysis of the deposited data

How the results depend on the processing

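LMO2 and both LMO4 probes kept a negative difference under all 14 alternatives, and LMO2 ran from -0.94 to -0.68 with all arrays and from -1.35 to -0.52 with 1 left out. With limma, 0 probes passed under every normalization, filter and variance setting without the block (1017 had an unadjusted p under 0.05 in the reported fit), and 0 to 1 probes passed when 1 array was left out. Whether arrays with the same replicate number came from one experiment is not stated in the labels; their deviations from the group means correlated at 0.352 across probes. The replicate block alone called 0 probes and left LMO2 at limma adjusted p = 0.379. Adding a robust variance trend to the replicate block gave 188 called probes, 2 of them member probes, LMO2 (-0.94, limma adjusted p = 0.0121) and LMO4 probe ILMN_1703487 (-0.83, limma adjusted p = 0.0155), and 2 list genes, CLDN3 (0.66) and CLDN4 (1.05). The cause was not tested, and the block leaves 1 residual degree of freedom a probe. With 1 array left out, values that changed sign ran from -0.095 to 0.21 for SSBP2, -0.060 to 0.58 for ISL1, -0.25 to 0.88 for ISL2, -0.56 to 0.072 for MYB, -0.016 to 0.25 for HHEX, -0.46 to 0.24 for CD34 and -0.061 to 0.21 for ENG. SSBP3 had no value when probes had to be detected on all 4 arrays. The number of arrays and, for dim probes, signal close to background limit these values.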
